A study of Mus musculus with 6 samples.

Results

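Chromosome 13 of 5 mouse mesotheliomas is described here outside the stretch from 58 to 68 Mb. The members are the 9501 non-control probes that lie on chromosome 13 and start before 58 Mb or past 68 Mb in mouse build mm7. They are 4.04% of the 235402 non-control probes with a position on the denser array design. Of them, 4117 lie past the stretch and 5384 before it, from 3015154 to 116695300, and the 879 probes of the stretch itself were left out. The members were chosen by position, but the bounds of the stretch were selected on measured log2 ratios of these arrays: short runs of low probes lie inside it among zinc finger genes, for example 10 probes from 60475048 to 60642983 at a mean log2 ratio of -1.37 in ARF-104. The levels below are therefore a description, with no test.

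Array comparative genomic hybridisation was used to measure the DNA copy number of malignant mesothelioma, the cancer of the lining of the chest and abdominal cavities that asbestos causes. The series title speaks of asbestos-induced tumours of Arf knock-out mice, and its design text of primary tumour cells from 4 Arf(+/-) mice, which carry 1 intact copy of the tumour suppressor Arf. The samples name 5 tumours, ARF-129, ARF-128, ARF-112, ARF-110 and ARF-104, and which of them falls outside the 4 mice is not given. All 5 form 1 group with no untreated tumour or matched normal tissue beside it. Tumour DNA carried Cy5 and was set against Cy3-labelled DNA of C57BL/6J, a standard inbred strain, bought from Jackson Laboratories. The labels call the cells primary malignant mesothelioma cells for every tumour but ARF-104, for which no cell type is given. The strain background, age and sex of the tumour mice are not given, so an inherited difference from C57BL/6J and a change acquired by a tumour cannot be told apart.

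All tumours but ARF-110 were hybridised to the denser design, with a median of 8028 bases between neighbouring members. ARF-110 was hybridised only to the sparser design, which holds 1469 of the members at a median spacing of 29199 bases. ARF-128 has an array of each design, and its denser array, titled ARF-128PlusMinus with no meaning given for the addition, stands for the tumour here. The noise of a single probe, taken from differences between neighbours, was 0.78 log2 units for ARF-128 and between 0.15 for ARF-110 and 0.49 for ARF-129 in the other tumours. Each tumour is thus read from 1 array, with no replicate array to give an error for its level. Median tumour signal over background was lowest in ARF-128, at 4.11, and reached 11.1 in ARF-104. ARF-104, ARF-112 and ARF-129 were scanned on the same day.

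A log2 ratio of 0 stands for the median of all autosomal probes of that array, so levels are relative to the rest of the same genome. With 2 copies as the baseline and every cell carrying the change, 1 copy more would give 0.58 (150% of C57BL/6J) and 1 copy fewer -1 (50%). Admixture of normal cells and changes carried by only some cells pull both values towards 0. Mouse chromosome 13 carries several multigene families (prolactin-like hormones, vomeronasal and olfactory receptors, serine protease inhibitors of the Serpinb class, aldo-keto reductases and the Naip inhibitors of apoptosis). It also holds genes that bear on tumour growth, among them the telomerase subunit Tert, the mismatch repair gene Msh3, the stress kinase Map3k1 and the TNF receptor adaptor kinase Ripk1. Large gains and losses of whole chromosomes or arms move all genes on them together, whereas a breakpoint inside a chromosome divides its genes into differing copy-number states.

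The probes on either side of the breakpoints found below are shown first, since they fix where each change of level was placed. Capitals would mark AGCT and GTAC, the sites of AluI and RsaI that cut the DNA before labelling, and none of the printed probes holds either. Probes are given 5′ to 3′ as the array design lists them, with the strand not stated.
A_67_P07891326 (Ntrk2, chr13:57920122-57920181, last before the ARF-129 step): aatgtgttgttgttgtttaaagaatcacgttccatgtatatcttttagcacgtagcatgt
A_67_P07891339 (Ntrk2, chr13:57925217-57925276, first past it): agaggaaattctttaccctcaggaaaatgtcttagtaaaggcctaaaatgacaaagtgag
A_67_P07895734 (DX574385, chr13:59709173-59709232, last before the ARF-129 step with the stretch included): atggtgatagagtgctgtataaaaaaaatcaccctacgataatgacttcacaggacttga
A_53_P135292 (Dapk1, chr13:59714664-59714723, first past it): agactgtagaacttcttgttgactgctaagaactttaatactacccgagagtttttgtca
A_67_P02723817 (no gene, chr13:72790043-72790102, last before the ARF-112 low interval): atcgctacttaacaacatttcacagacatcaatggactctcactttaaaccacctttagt
A_67_P02723841 (no gene, chr13:72801258-72801317, first inside it): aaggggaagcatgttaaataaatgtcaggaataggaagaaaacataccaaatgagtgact
A_67_P07946451 (Edil3, chr13:86383573-86383632, last inside it): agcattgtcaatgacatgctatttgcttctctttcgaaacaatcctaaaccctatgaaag
A_67_P07946468 (Edil3, chr13:86389500-86389559, first past it): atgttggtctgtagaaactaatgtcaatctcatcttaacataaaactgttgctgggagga

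A second set of probes is shown because each was at or below -1 on all 4 denser arrays and in ARF-110, and each lies in a short segment called lost in ARF-110 below. None of these 3 carries a gene name in the array's annotation.
A_53_P119493 (chr13:9593017-9593076): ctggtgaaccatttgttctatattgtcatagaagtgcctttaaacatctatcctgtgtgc
A_53_P126697 (chr13:73366261-73366320): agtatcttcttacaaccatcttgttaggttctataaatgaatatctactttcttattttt
A_53_P100641 (chr13:79783872-79783931): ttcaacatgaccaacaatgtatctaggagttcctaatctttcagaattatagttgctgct

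Chromosome 13 lay within 0.1 of the autosomal median in ARF-104, ARF-110 and ARF-128, was lower throughout in ARF-112 and was divided into 2 levels in ARF-129. The mean log2 ratio of the members was -0.09 for ARF-104, -0.06 for ARF-110, -0.19 for ARF-112, -0.06 for ARF-128 and 0.12 for ARF-129, or -0.06 ± 0.11 over the tumours (SD, n = 5). As a share of the C57BL/6J signal these levels were 93.7%, 95.9%, 87.5%, 96.1% and 109%. ARF-112 was the lowest and ARF-129 the only tumour above 0. Of the 1 Mb bins with at least 3 probes, 98.1% were below 0 for ARF-104, 80.2% for ARF-110, 100% for ARF-112, 75.0% for ARF-128 and 29.8% for ARF-129.

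Past the stretch the mean was -0.11 for ARF-104, -0.07 for ARF-110, -0.22 for ARF-112, -0.04 for ARF-128 and 0.29 for ARF-129. Before the stretch it was -0.08 for ARF-104, -0.05 for ARF-110, -0.17 for ARF-112, -0.07 for ARF-128 and -0.01 for ARF-129. Past the stretch ARF-129 was the only tumour above 0, and before it all 5 were below 0. The difference, past minus before, was 0.30 in ARF-129 and lay between -0.04 and 0.02 in the other tumours, with a mean of 0.04 ± 0.14 (SD, n = 5), so the mean over tumours does not describe any single one of them. The share of probes below 0 was 27.3% past the stretch and 48.8% before it in ARF-129, against 68.7% past and 65.5% before it in ARF-112. The left-out stretch itself averaged -0.18 for ARF-104, -0.11 for ARF-110, -0.27 for ARF-112, -0.09 for ARF-128 and 0.20 for ARF-129.

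**Figure D1:**
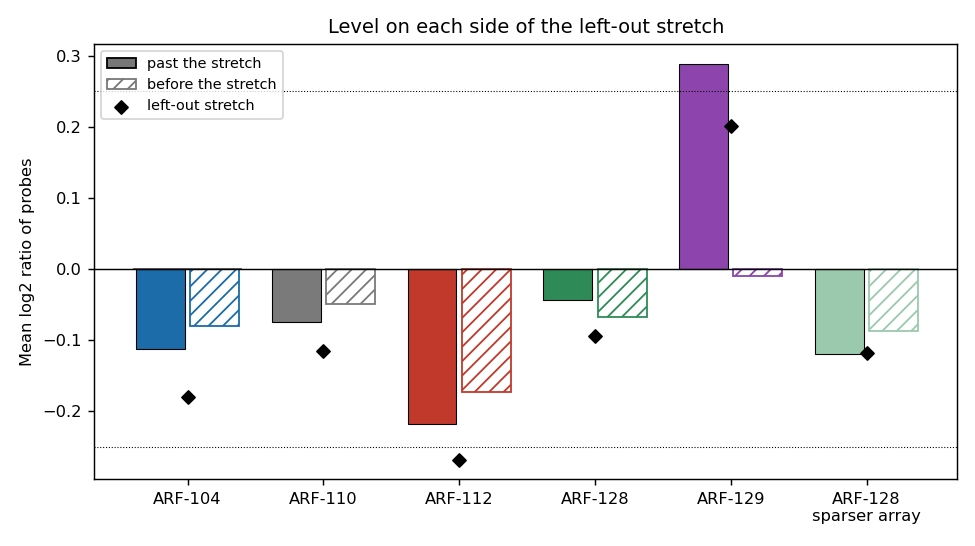
Mean log2 ratio (tumour over C57BL/6J) of chromosome 13 probes on each array, as filled bars past the stretch from 58 to 68 Mb, hatched bars before it and diamonds for the stretch itself. Dotted lines mark the call thresholds at 0.25 and -0.25. ARF-129 stands at 0.29 past the stretch and -0.01 before it, while the bars of each other array differ by less than 0.05.

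At the bounds of the rule, the 20 probes nearest on either side give the following means. In ARF-129 the last 20 before 58 Mb averaged 0.03 and the first 20 from 58 Mb 0.16, and the first 20 past 68 Mb averaged 0.24 and the last 20 up to 68 Mb 0.44. In ARF-104 the 4 means in the same order were -0.10, 0.07, -0.08 and 0.05, and in ARF-112 they were -0.17, -0.05, -0.19 and -0.06. In ARF-128 they were -0.06, 0.21, 0.22 and 0.16. ARF-110 has at most 2 probes in each of these places.

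Set beside the other autosomes of the same array, chromosome 13 ranked 6th of 19 from the lowest for ARF-104, 7th for ARF-110, 4th for ARF-112, 7th for ARF-128 and 14th for ARF-129. In ARF-112, its -0.19 stood below an other-autosome median of -0.02, whose lowest and highest members were at -0.59 and 0.52. In ARF-129, its 0.12 stood above an other-autosome median of -0.02, with a range from -0.48 to 0.62. In ARF-104, ARF-110 and ARF-128 it stood within 0.03 of the other autosomes' medians, which were -0.07, -0.04 and -0.05. None of the tumours had chromosome 13 at either end of its autosomes.

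**Figure D2:**
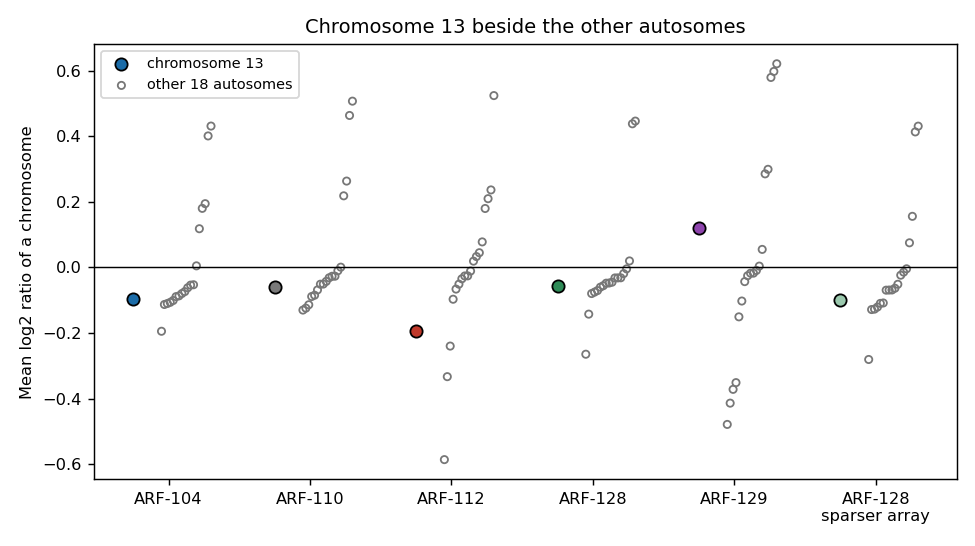
Mean log2 ratio of chromosome 13 outside the left-out stretch (filled circle) and of each other autosome (open circles, in order of level) on each array. Chromosome 13 is 4th from the lowest in ARF-112 and 14th in ARF-129, and no array has it as its lowest or highest autosome.

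ARF-129 was at 2 levels along the chromosome. A segmentation that adds a breakpoint only where the fit improves by more than a fixed penalty placed 1 breakpoint among the members, between 57920181 and 57925217 inside Ntrk2, the receptor of the neurotrophin BDNF. The 4127 probes past it averaged 0.29 (122% of C57BL/6J) and the 5370 probes before it -0.01. A segment was called gained at a mean of 0.25 or more (119% of C57BL/6J) and lost at -0.25 or less (84.1%). On that rule 43.5% of the members were gained in ARF-129, where 20.8% of all autosomal probes were gained, and 0% were lost, where 26.9% of all autosomal probes were lost.

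The place of the ARF-129 step depends on which probes are used. With all chromosome 13 probes the breakpoint moved to between 59709232 and 59714664, from DX574385 to Dapk1, a death-associated protein kinase. Splits from 59314171 to 59765170, a range of 0.451 Mb, fitted nearly as well. The 100 probes past that point averaged 0.29 and the 100 before it 0.03. At the Ntrk2 position, with the stretch included, the nearest 100 probes averaged 0.09 past it and 0.04 before it. With both sides segmented apart, neither side held a breakpoint. With only the probes of both designs, which are sparser, the single breakpoint was placed at the probe starting at 70139459, past the stretch. On the other arrays, the 100 probes past 59714664 minus the 100 before it came to between -0.09 and 0.01.

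Past the step the windows of ARF-129 were all high. In windows of 10 Mb of members its means were 0.25 from 70 Mb, 0.26 from 80 Mb, 0.31 from 90 Mb, 0.32 from 100 Mb and 0.30 from 110 Mb. From the first window onward before the step they were -0.05, -0.05, -0.04, 0.01 and 0.00, with 0.07 for the members from 50 Mb up to the stretch. All 5 windows past the step exceeded the 6 before the stretch. The level of 0.29 is below the 0.58 of 1 extra copy in every diploid cell, and purity and ploidy were not measured here. With normexp background correction the difference past minus before shrank to 0.11, and 0.326% of the members were called gained.

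**Figure D3:**
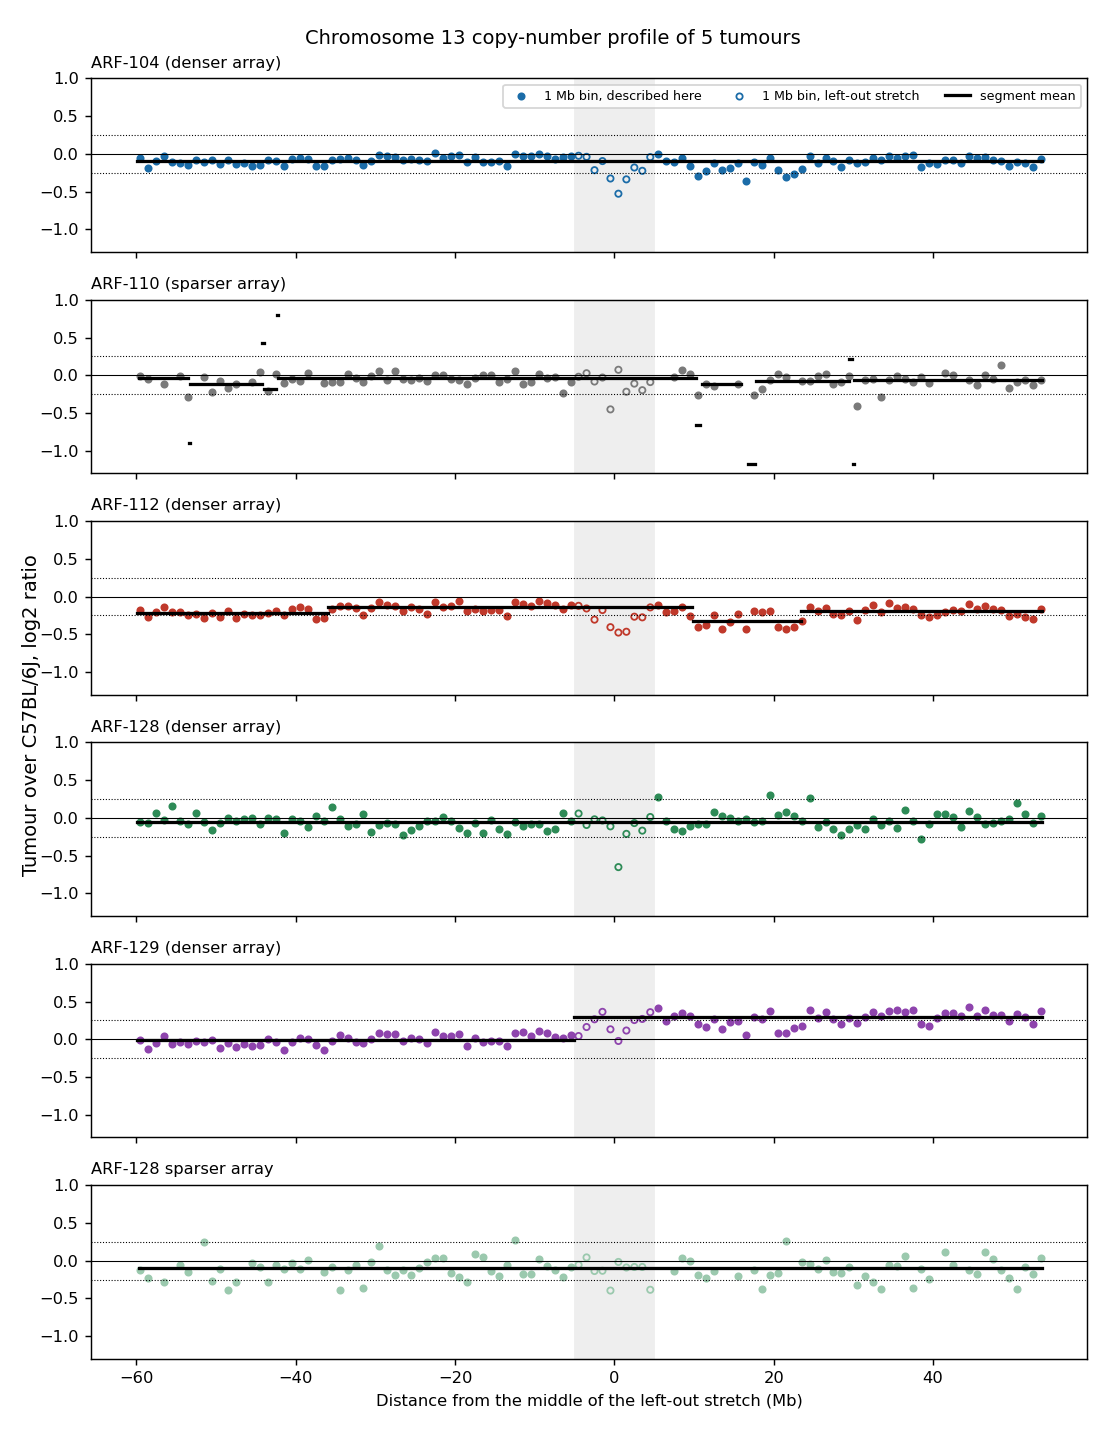
Mean log2 ratio of 1 Mb bins (points, open in the left-out stretch, which is shaded) along chromosome 13 on each array, against the distance in Mb from the middle of the left-out stretch. Black lines are segment means and dotted lines the call thresholds. ARF-129 steps up to 0.29, ARF-112 has a low interval at -0.33, and ARF-110 has 7 short segments off the baseline.

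ARF-112 was low along the whole chromosome and lowest over 13.6 Mb past the stretch. Its 3 breakpoints made 4 segments, at -0.22 over 2428 probes, -0.14 over 3328, -0.33 over 849 and -0.19 over 2895. The third, from 72801258 to 86383632, was called lost. It held 8.94% of the members, where 14.8% of all autosomal probes were lost in ARF-112, and 0% of the members were gained, where 9.19% of all autosomal probes were. The first breakpoint lay between 27078686 and 27083433, next to Plfr, a proliferin-related hormone gene of the prolactin family, and was loosely placed: splits from 21507327 to 28265682 fitted nearly as well. The edges of the low interval were placed to within 1.4 Mb (71629992 to 73029580) and 0.962 Mb (86275600 to 87237486), and the last breakpoint fell inside Edil3, which codes for a secreted integrin-binding protein. Neither edge of the low interval was placed when the stretch was included, when only the probes of both designs were used, or at a penalty of 10 log n. With both sides segmented apart the near edge was not placed, the far one moved to 87087088, and the lost segment began with the side (13.6% of the members).

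The same interval was also lower than the rest of its side in ARF-104 and ARF-129. Its mean was -0.20 in ARF-104, against -0.09 over the rest of the side past the stretch, and in ARF-110 it was -0.19, against -0.06. It was -0.33 in ARF-112, against -0.19 over the rest, and 0.20 in ARF-129, against 0.31 there. The denser array of ARF-128 had it at -0.02, against -0.05 over the rest, and on the sparser array of ARF-128 -0.18, against -0.11. Interval minus rest was thus between -0.14 and -0.11 in 4 tumours and 0.03 in ARF-128, but in ARF-110 it rested on a few probes. Without the probes at or below -1 or at or above 1 on all 4 denser arrays, an alternative chosen after seeing the data, the difference was -0.05 for ARF-110, -0.10 for ARF-104, -0.13 for ARF-112 and -0.10 for ARF-129. By medians, also chosen after seeing the data, it came to -0.03 for ARF-110, -0.09 for ARF-104, -0.11 for ARF-112 and -0.10 for ARF-129. The interval held 54 named genes, 57% of its probes lay in a named gene against 65.1% over the rest, and its median probe spacing was 11731 bases against 8270. Mean GC content of its probes was 36.2%, against 36.5% over the rest. When fewer gains in fit were asked for (a penalty of 3 log n in place of 5 log n), ARF-104 also broke at the probes starting at 72801258 and 86389500, the same probes as in ARF-112. Whether this dip is a change of copy number or belongs to the sequence and its probes was not tested.

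The 1 Mb profiles moved together on 3 arrays. Across the 49 bins past the stretch Pearson's r was 0.94 between ARF-104 and ARF-112, 0.91 between ARF-104 and ARF-129 and 0.92 between ARF-112 and ARF-129, and across the 55 bins before it 0.92, 0.93 and 0.91 for the same pairs. These 3 arrays share their design, scan day and C57BL/6J DNA, and r with the GC content of the bins was 0.49, 0.49 and 0.51 past the stretch in ARF-104, ARF-112 and ARF-129. The denser array of ARF-128 had r between -0.16 and 0.23 with the other tumours. ARF-110 had r of 0.57 past and 0.59 before the stretch with the sparser array of ARF-128, which was scanned on the same day as ARF-110. The part of scan day, design and base composition in these shared profiles was not tested.

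ARF-104 and ARF-128 had 0 breakpoints among the members, and 0% of the members were gained or lost in either. Over all autosomal probes, 16.8% were gained and 1.11% lost in ARF-104, and 8.04% gained and 1.77% lost in ARF-128. In ARF-104 the lowest 1 Mb bin was at -0.35 and started at 79 Mb, inside the low interval of ARF-112. In ARF-128 the bins ranged from -0.28 to 0.31.

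The denser and the sparser array of ARF-128 gave similar levels but not similar detail. Over the 1469 shared probes the mean was -0.18 on the denser array and -0.10 on the sparser one, a difference of -0.08 with an SD of 0.81 over probes. The ratios of single probes had r = 0.33 between the arrays, and the means of 91 bins had r = -0.02. Past minus before the stretch was 0.02 on the denser and -0.03 on the sparser array. Neither array held a breakpoint, so the single-gene values of ARF-128 below rest on an array whose fine detail did not recur on the sparser one.

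ARF-110 had 13 breakpoints around 7 short segments of 5 to 13 probes. Of the members on its array, 0.749% were in gained segments, where 13.4% of all autosomal probes were, and 1.36% in lost ones, where 2.73% of all autosomal probes were. The lost segments ran from 9534690 to 9664428 at -0.90, from 73200748 to 73745484 at -0.66, from 79783872 to 80703412 at -1.18 and from 92889182 to 93086602 at -1.18. The gained ones ran from 18738340 to 18989686 at 0.43 and from 20581609 to 20713614 at 0.80, and 1 more at 0.22 from 92504447 to 92777031, over Crhbp, was not called. Of the 6 called, 4 fell between the thresholds without their farthest probe.

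In the segment starting at 9534690, A_53_P119493 was at -4.24 and the mean without it was -0.06. In the gained segment starting at 18738340, A_53_P157349 was at 1.53 and the mean without it was 0.21. In the one starting at 20581609, A_53_P129946 was at 3.82 and the mean without it was 0.04. In the one starting at 73200748, A_53_P126697 was at -2.61 and the mean without it was -0.18. The segment starting at 79783872 kept a mean of -0.45 without A_53_P100641, which was at -4.11, but the median of its remaining probes was -0.07. The segment starting at 92889182 kept a mean of -0.28 without A_53_P107603, which was at -4.80, and a median of -0.23. When each ratio was limited to within 3 SD of noise of the running median of 25 probes, an alternative chosen after seeing the data, ARF-110 had 0 breakpoints on chromosome 13.

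Single probes that were low on all 4 denser arrays were found along the chromosome. Of 9492 members measured on all 4 denser arrays, 89 (0.938%) were at or below -1 on each of them, where 0.603% of all autosomal probes were. Another 6 (0.0632%) were at or above 1 on each, where 0.143% of all autosomal probes were. The left-out stretch had 1.59% low probes. Of the 89 low probes, 29 lay past the stretch (0.704% of that side) and 60 before it (1.11%), and 80 had no other low probe within 50 kb. Mean GC content was 35.8% for the low probes, against 36.5% for all members, and 55 of the 89 lay in a total of 47 named genes.

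The sparser design holds 16 of the 89 low probes. A_53_P100641 was at -3.89 for ARF-104, -4.11 for ARF-110, -3.61 for ARF-112, -1.34 for ARF-128 and -1.64 for ARF-129, while its neighbours on either side averaged 0.68 and 0.15 on the denser arrays. A_53_P119493 was at -1.45, -4.24, -2.93, -1.89 and -1.03 in the same order of tumours, and A_53_P126697 at -1.77, -2.61, -1.62, -1.29 and -1.44. These 3 were low in all 5 tumours, and the other 13 were above -1 in ARF-110. Among probes of the denser design only, A_67_P02739623 in Edil3 was at -1.43 for ARF-129, -1.47 for ARF-128, -3.74 for ARF-112 and -3.96 for ARF-104. A_67_P07946451, the last probe inside the low interval of ARF-112, was itself among the 89, at -1.47 in ARF-112 and between -1.80 and -1.13 in the other 3. Whether a sequence difference from C57BL/6J lies under any of these probes was not tested.

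**Figure D4:**
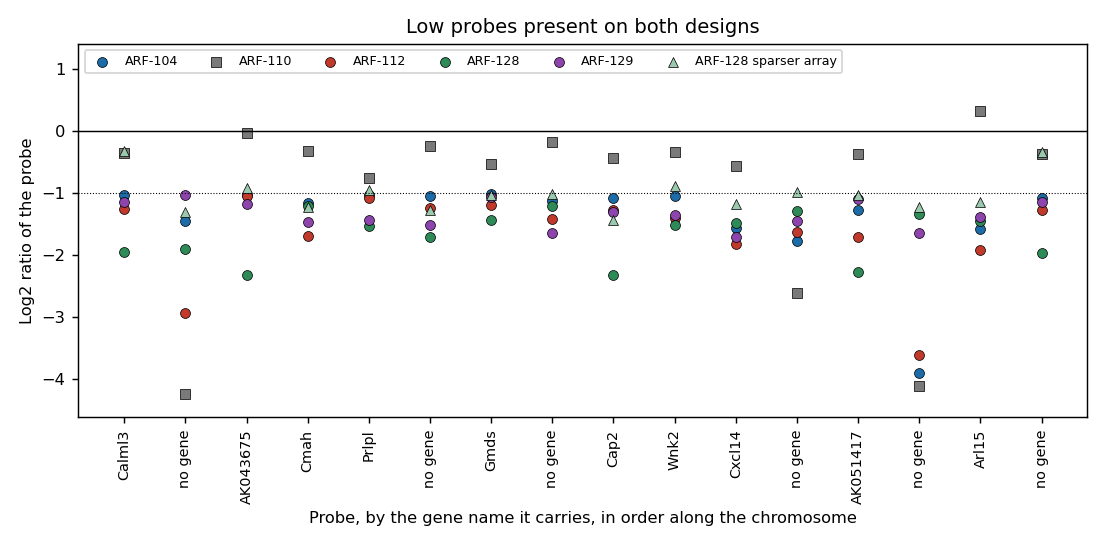
Log2 ratio on each array of the 16 probes that were at or below -1 on all 4 denser arrays and are also on the sparser design, in order along the chromosome and named by their gene. Circles are denser arrays, squares ARF-110 and triangles the sparser array of ARF-128. In ARF-110, 3 of the 16 lie at or below -1 (the dotted line) and the other 13 lie above it.

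Runs of 5 neighbouring probes were ranked over 9493 windows by their distance from their side's median, averaged over the 4 denser arrays. This rule was chosen after seeing the data, and a run did not have to stand off on each array. The highest run, over Ccnh, the cyclin H subunit of the CDK-activating kinase, was at 1.19 for ARF-129, 1.21 for ARF-128, 0.48 for ARF-112 and 0.50 for ARF-104, but its 2 probes on the sparser design were at -0.23 in ARF-110 and -0.24 on the sparser array of ARF-128. The next, over Birc1g of the Naip family, was at 1.08, 0.51, 1.03 and 0.66 on the same arrays and has no probe on the sparser design. The run over E2f3, a cell-cycle transcription factor, was at 0.91, 0.79, 0.51 and 0.65 on the denser arrays, 0.19 in ARF-110 and 0.34 on the sparser array of ARF-128. The lowest runs were 5 probes from 72801258, at the edge of the ARF-112 interval, with -0.43, -0.86, -1.36 and -1.28 in the same order, and 5 from 21463679, with -0.69, -1.67, -0.96 and -0.78. The third lowest, over Ly86, was at -0.89, -1.47, -0.97 and -0.52 on the denser arrays, against -0.18 in ARF-110.

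Around Birc1g, 9 neighbouring probes from 97324651 to 97377107 stood above the rest of their side. These bounds are the breakpoints of ARF-112 at a penalty of 3 log n. The high values of ARF-112 below therefore follow from the choice of probes. The place also ranked 2 among the high runs of the 9493 windows, by the average over all 4 denser arrays. High values on the other denser arrays thus follow in part from selection too, and are no independent recurrence. Their mean was 0.99 ± 0.63 for ARF-129, 0.19 ± 1.42 for ARF-128, 0.79 ± 0.57 for ARF-112 and 0.53 ± 0.33 for ARF-104 (SD over 9 probes), where the rest of the side was at 0.29, -0.04, -0.22 and -0.11. All 9 lay above the rest in ARF-104, 8 in ARF-129 and in ARF-112, and 7 in ARF-128. The Naip genes lie next to each other as near-identical copies, so that a probe for one may bind others. Their neighbours Birc1b, Birc1e and Birc1a were at -0.08, 0.10 and -0.06 in ARF-104, and at 0.33, 0.34 and 0.41 in ARF-129. Among the Birc1g probes, 1 was also at or above 1 on all 4 denser arrays, and it is shown as the high probe that lies in this run.
A_67_P02758859 (Birc1g, chr13:97377053-97377107): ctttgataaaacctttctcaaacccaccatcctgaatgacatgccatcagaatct

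By gene, the members carry 881 gene names, 353 past the stretch and 528 before it. A gene's value is the mean of its own probes, which is far noisier than a segment. In ARF-129, 201 of the 353 genes past the stretch (56.9%) were at or above 0.25, against 111 of 528 before it (21.0%), where 29.9% of all autosomal genes were. The median gene was at 0.29 past the stretch and 0.00 before it. At or below -0.25 were 5.95% past the stretch and 21.4% before it in ARF-129, where 28.9% of all autosomal genes were. In ARF-112, 327 of 881 genes (37.1%) were at or below -0.25, where 20% of all autosomal genes were, and 82 (9.31%) at or above 0.25, where 26.9% were.

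In the other 3 tumours, the counts of genes at or above 0.25 and at or below -0.25 were as follows. In ARF-104 they were 97 (11%) and 189 (21.5%) of 881, where 22.5% and 18% of all autosomal genes were. In ARF-110 they were 24 (3.42%) and 64 (9.12%) of the 702 genes with a probe, where 14.5% and 8.57% were. In ARF-128 they were 171 (19.4%) and 327 (37.1%) of 881, where 25.2% and 35.8% were. Genes at or above 0.25 were a smaller share on chromosome 13 than over all autosomes in every tumour but ARF-129, whereas the shares at or below -0.25 in ARF-110 and ARF-128 stood close to those over all autosomes.

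Of the 24 listed genes with at least 10 probes on the denser design, 15 lay past the stretch. In ARF-129 all 15 were above 0, with 8 at or above 0.25 and a median of 0.25, while in ARF-112 all 15 were below 0, with 7 at or below -0.25 and a median of -0.23. Pde4d, a cyclic AMP phosphodiesterase with 175 probes, was at -0.11 for ARF-104, -0.16 for ARF-110, -0.19 for ARF-112, -0.07 for ARF-128 and 0.32 for ARF-129. Edil3, with 66 probes that reach across the edge of the ARF-112 interval, was at -0.33, -0.17, -0.47, -0.18 and 0.06 in the same order of tumours. In ARF-110 each of these genes rests on 3 probes. For both genes ARF-129 was the highest tumour.

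Before the stretch, the 9 genes of that size set the 2 tumours less far apart. ARF-112 had 8 of the 9 below 0 and a median of -0.16, and ARF-129 had 4 below 0 and a median of 0.02. Cdkal1, a tRNA-modifying enzyme with 71 probes, was at -0.04 for ARF-104, 0.15 for ARF-110, -0.12 for ARF-112, -0.12 for ARF-128 and 0.08 for ARF-129. Atxn1, the ataxin gene with 58 probes, was at -0.05, -0.49, -0.21, -0.12 and -0.03, and Phactr1, an actin and phosphatase regulator with 63, was at -0.06, 0.10, -0.18, -0.05 and 0.02. These counts are of the denser design, and ARF-110 rests on 1 probe of Cdkal1, 2 of Atxn1 and 3 of Phactr1. The highest value of ARF-129 in these 9 was 0.27, in Ntrk2, whose 14 member probes straddle the step as placed without the stretch. With the stretch included the step lies past Ntrk2, between 59709232 and 59714664. Ntrk2 was at 0.35 in ARF-128, which had no breakpoint.

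**Figure D5:**
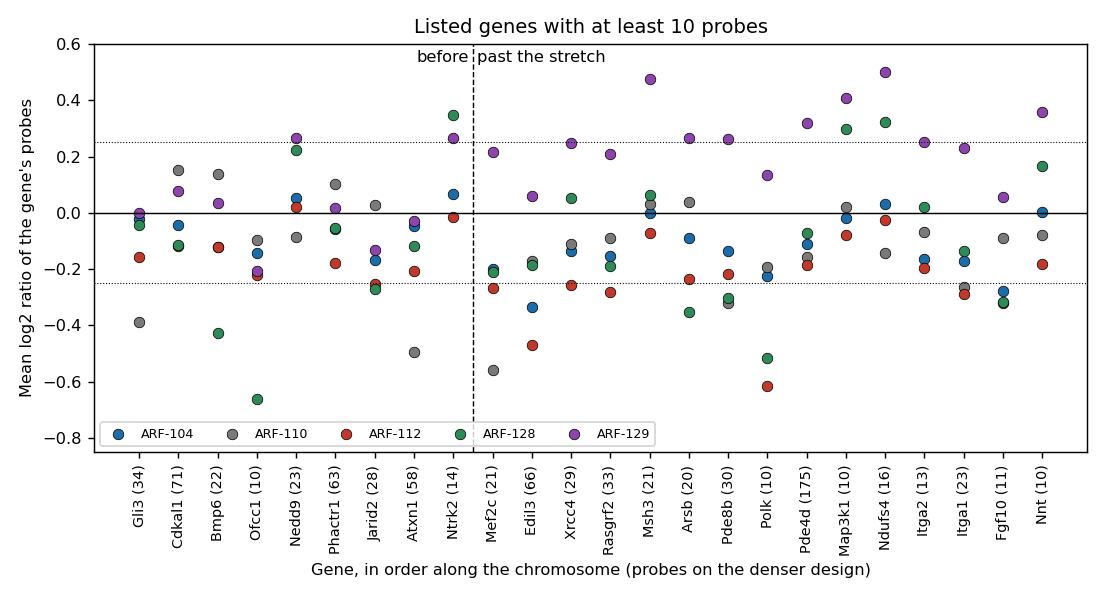
Mean log2 ratio of each listed gene with at least 10 probes on the denser design, in order along chromosome 13, with 1 point per tumour and the number of probes in brackets. The dashed line separates genes before the left-out stretch from those past it, and dotted lines mark 0.25 and -0.25. Past the stretch the ARF-129 points all lie above 0 and the ARF-112 points all below it.

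Among TNF, growth factor and signalling genes all 19 listed were measured, 8 past the stretch and 11 before it. In ARF-129, 5 of the 19 were at or above 0.25 and 1 at or below -0.25, where 29.9% and 28.9% of all autosomal genes were. The 5 are 26.3% of the list, a share below that of all autosomal genes. Among all member genes that share was 56.9% past the stretch and 21.0% before it. The median of the list was 0.16, where the median of all autosomal genes was 0.00 and that of all member genes 0.12. The stress kinase Map3k1, past the stretch, was at -0.02 for ARF-104, 0.02 for ARF-110, -0.08 for ARF-112, 0.30 for ARF-128 and 0.41 for ARF-129. The TNF receptor adaptor kinase Ripk1, before it, was at 0.03, 0.12, 0.00, -0.10 and 0.16. Both lay near 0 in ARF-104, ARF-110 and ARF-112. The PI3-kinase regulatory subunit Pik3r1, on 2 probes, was below 0 in all 5, at -0.56, -0.05, -0.70, -1.06 and -0.20. So was the Ras inhibitor Rasa1, on 5 probes (2 in ARF-110), at -0.34, -0.08, -0.52, -0.37 and -0.12. The protease-activated receptor F2rl1, on 2 probes, was above 0 in all 5, at 0.24, 0.27, 0.33, 0.72 and 0.83.

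Of 16 listed cell cycle, telomere and DNA repair genes, 13 were measured. In ARF-129, 6 of them (46.2%) were at or above 0.25 and 1 (7.69%) at or below -0.25, with a median of 0.25, where 29.9% and 28.9% of all autosomal genes were. Of the 13, 9 lie past the stretch and 4 before it. Among all member genes of those sides, 56.9% and 21.0% were at or above 0.25 in ARF-129, so the list follows its position. In ARF-112 the counts were 1 (7.69%) and 4 (30.8%), with a median of -0.16, where 26.9% and 20% of all autosomal genes were. Among all chromosome 13 member genes the shares in ARF-112 were 9.31% and 37.1%. The mismatch repair gene Msh3, with 21 probes, was at 0.00 for ARF-104, 0.03 for ARF-110, -0.07 for ARF-112, 0.06 for ARF-128 and 0.48 for ARF-129. The end-joining factor Xrcc4, with 29 probes, was at -0.14, -0.11, -0.26, 0.05 and 0.25, and the translesion polymerase Polk, with 10, at -0.22, -0.19, -0.61, -0.52 and 0.13. ARF-129 was the highest tumour for all 3. In ARF-110, Msh3 rests on 3 probes and Xrcc4 and Polk on 2 each. Tert rests on 4 probes (2 in ARF-110), at 0.29, 0.06, 0.11, -0.37 and 0.69, and on the sparser array of ARF-128 it was at -0.37 too. Gadd45g, a stress-response gene before the stretch, rests on 1 probe, at -0.63, 0.10, -1.0, -0.65 and -0.45.

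Of 16 developmental transcription factors, 13 were measured, with 6 (46.2%) at or above 0.25 and 2 (15.4%) at or below -0.25 in ARF-129 and a median of 0.22, where 29.9% and 28.9% of all autosomal genes were. Their median in ARF-129 was 0.29 for the 7 past the stretch and -0.05 for the 6 before it. All member genes of those sides had medians of 0.29 and 0.00, with 56.9% and 21.0% at or above 0.25. The homeobox gene Otp, which rests on 1 probe, was below 0 in all 5 tumours, at -0.70, -0.30, -0.77, -0.74 and -0.45. Mef2c, with 21 probes in the ARF-112 interval, was at -0.20 for ARF-104, -0.56 for ARF-110, -0.27 for ARF-112, -0.21 for ARF-128 and 0.22 for ARF-129. In ARF-110 Mef2c rests on 3 probes. It overlaps the short ARF-110 segment from 79783872, whose median without its farthest probe was -0.07.

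The 6 measured matrix and adhesion genes of 13 listed all lie past the stretch. In ARF-129, 4 of the 6 were at or above 0.25, with a median of 0.30, where 29.9% of all autosomal genes were. Among all member genes past the stretch that share was 56.9%, with a median of 0.29. In ARF-112 0 of the 6 were at or above 0.25, where 26.9% of all autosomal genes were. Another 2 were at or below -0.25, where 20% were, and the list median was -0.21. Among all member genes past the stretch the ARF-112 shares were 7.93% and 39.7%, with a median of -0.20. The collagen-binding integrin genes Itga1 and Itga2 were at 0.23 and 0.25 in ARF-129, and at -0.29 and -0.20 in ARF-112. The matrix glycoprotein gene Thbs4 was at 0.54 in ARF-129 and between -0.08 and 0.01 in the other tumours. Of 8 measured metabolic genes, 4 (50%) were at or above 0.25 in ARF-129, among them the complex I subunit gene Ndufs4 at 0.50 and Nnt, the mitochondrial transhydrogenase gene, at 0.36. In ARF-112, 3 of the 8 (37.5%) were at or below -0.25. Over all autosomal genes those shares were 29.9% and 20%, and over all member genes 35.4% and 37.1%. Of these 8 genes, 6 lie past the stretch and 2 before it. The 7 measured very large genes had a median in ARF-129 of 0.26 past the stretch and -0.01 before it.

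The multigene families before the stretch differed in their medians, where the median over all genes of that side was 0.00 in ARF-129, -0.15 in ARF-112 and -0.12 in ARF-128. Past the stretch the median over all genes was 0.29 in ARF-129 and -0.20 in ARF-112. In ARF-129 the family median was 0.09 over 10 V1r vomeronasal receptor genes, 0.20 over 9 Olfr genes, -0.13 over 12 Serpinb genes, 0.02 over 15 prolactin-family genes 0.07 over 8 Akr1c genes and -0.11 over 3 Hist1 genes, whereas the 4 Naip-family genes past the stretch had 0.37. In ARF-112 the same medians were -0.11, -0.15, -0.17, -0.21, -0.05, -0.20 and -0.12. In ARF-128 the Akr1c median was 0.27, the Olfr median -0.32 and the Hist1 median -1.20. That Hist1 median is the value of Hist1h4i, which rests on 1 probe. Hist1h4h, also on 1 probe, was at -1.56 there, and Hist1h3h, on 49 probes, at -0.18. On the sparser array of ARF-128, Hist1h4i was at -0.42 and Hist1h3h at 0.02. The Akr1c genes measured there were at -0.60, -0.23, -0.08, -0.16, -0.64, 1.07 and -0.14. The Olfr genes were there at 0.02, 0.10, 0.66, -0.57, 0.71, -0.22, -0.22, -0.17 and 0.28. Most Akr1c values were thus below 0 on the sparser array, and the Olfr values lay on both sides of 0. Family members resemble each other, so that values of single members are uncertain.

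Of 438 genes with at least 3 member probes on the denser and 1 on the sparser design, the lowest and highest means over the tumours rested on 3 or 4 probes each. The lowest were AK133313 at -0.53 ± 0.48, Zfp322a at -0.53 ± 0.23, Tbc1d7 at -0.53 ± 0.37, Ero1lb at -0.51 ± 0.49 and Solt at -0.51 ± 0.31 (SD, n = 5). The highest were Bhmt at 0.68 ± 0.33, Isl1 at 0.54 ± 0.61, Ccnh at 0.53 ± 0.55, AK164627 at 0.40 ± 0.33 and Sirt5 at 0.36 ± 0.39 (SD, n = 5). Isl1, Ccnh, AK164627 and Sirt5 were at -0.05, -0.23, -0.03 and -0.09 in ARF-110. On the sparser array of ARF-128 these genes were at 0.03, -0.24, -0.23 and -0.27, against 1.51, 1.06, 0.45 and 0.96 on its denser array. Bhmt was at 0.13 on that sparser array. Bhmt, which codes for betaine-homocysteine methyltransferase, was above 0 in all 5 tumours, at 0.56 for ARF-104, 0.17 for ARF-110, 0.77 for ARF-112, 0.93 for ARF-128 and 0.99 for ARF-129. Zfp322a, Tbc1d7 and Solt were below 0 in all 5, but 1 probe of each stood apart, at means of -0.01, 0.11 and 0.53 on the denser arrays. With the segment over each gene in place of its own probes, the means of the 5 highest genes were between -0.07 and -0.02.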

How the data were processed

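DNA of 5 tumours was compared with C57BL/6J DNA on 6 two-colour Agilent arrays, spotted probes being read as intensity in Cy5 (tumour) and Cy3 (C57BL/6J), per the labels. Per the file headers, the authors' scanner output came from Agilent Feature Extraction 8.5.1.1 (sparser arrays), 9.1.3.1 or 9.5.3.1 (denser array of ARF-128), which subtracted background and normalised the dyes. It gives processed intensities and a log10 ratio, and the deposited value tables hold log2 ratios for the denser arrays and log10 ratios for the sparser ones, with array medians between 0.00 and 0.05. The build, mm7, stands in the header of a single denser file, and for the sparser design no build was found in the sources used here.

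The log2 ratio of processed Cy5 over Cy3 intensity was taken without control and outlier spots (at least 99.9% of other spots kept), spots of 1 probe were merged by their mean, and the autosomal median of an array was set to 0. The sparser arrays were joined by probe name. Segments came from exact penalised least squares (penalty 5 log n in units of probe noise, at least 5 probes), called at 0.25 or -0.25. A range of near-equal splits is that within 4 units of the best fit. The script was tested on simulated data. Python 3.11.15, numpy 2.4.6, pandas 2.3.3 and, for normexp with an offset of 50, R 4.3.3 with limma 3.58.1 were used.

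Each tumour has 1 array (ARF-128 has 2), so there is no error between replicate arrays, and the number of arrays limits precision. Members and 6 gene lists were chosen with earlier results of these data known, so no p-value is given. Genes named were those of the lists, those at breakpoints, and the 5 lowest and 5 highest by mean over tumours. Of 881 gene names, 366 matched a RefSeq symbol, 136 a synonym and 9 an accession, and 370 kept the array's name. Cdk7, Trip13, Cenpk, Tfap2a, Sox4, Lhx8, Vcan, Dsp, Map1b, Ogn, Aspn, Omd and Ecm2 had no probe of that name, and Mtrr and Adcy2 lay in the left-out stretch. A pair of genes of the lists is not reported here and was left out of their counts.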

Additional observations from a re-analysis of the deposited data

Results flagged for a closer look

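For 4 levels and 71 named genes, the value farthest from the others was set against Dixon's limit for 5 tumours, and 9 passed it, 8 of them genes. Chance alone passes about 1 in 20 if all 5 values share the same spread. That does not hold here, since probe noise was 0.78 in ARF-128 and at most 0.49 in the other tumours. The 71 genes also include those picked as lowest or highest by mean over these same tumours, AK133313 among them. They fell in 2 tumours, 5 in ARF-128 and 4 in ARF-129.

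In ARF-129, the level past minus before the left-out stretch was 0.30, where the other tumours lay between -0.04 and 0.02. The genes Msh3 at 0.48 (others -0.07 to 0.06), Pde4d at 0.32 (others -0.19 to -0.07) and Thbs4 at 0.54 (others -0.08 to 0.01) also stood above the rest in ARF-129. All 3 lie past the step, so these 4 values share 1 segment.

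In ARF-128, the gene AK133313 stood apart at -1.38 (others -0.41 to -0.23), Irf4 at -0.92 (others 0.01 to 0.30), Ofcc1 at -0.66 (others -0.22 to -0.10) and Tgfbi at -0.50 (others -0.13 to -0.06). Id4 stood above the others at 0.66 (others -0.18 to -0.07). No segment of ARF-128 was called on chromosome 13, its denser array had the highest probe noise, and its sparser array gave -0.70, -0.06, 0.08, -0.19 and -0.54 for the same genes in the order AK133313, Irf4, Ofcc1, Tgfbi and Id4.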

How the results depend on the processing

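Of the recomputed levels, counts and shares, 310 kept their value within the set limits and 47 moved. With normexp background correction the ARF-112 level was -0.0727, the ARF-129 difference past minus before 0.11, the median of ARF-129 genes past the stretch 0.13 and their share at or above 0.25 19.5%. ARF-110 then had 2 breakpoints with 0% gained and 0.340% lost, ARF-112 7 with 0.0632% gained and 0.137% lost, and ARF-129 9 with 0.326% gained. On well-lit spots alone ARF-110 had 0.682% lost, and with centring on the mode of bins 1.63% gained. On shared probes alone ARF-112 had 0 breakpoints and 0% lost, and ARF-129 0% gained. With the stretch included ARF-104 had 4 breakpoints and 0.212% lost, ARF-112 5 and 3.41% lost. At a threshold of 0.15 ARF-110 had 1.63% gained and 3.00% lost and ARF-112 65.0% lost, and at 0.35 ARF-112 had 0% lost and ARF-129 0% gained. At 3 log n, ARF-104 had 4 breakpoints and 0.0526% lost, ARF-110 22 with 1.91% gained and 2.31% lost, ARF-112 6 and 0.0947% gained, and ARF-129 2. At 10 log n, ARF-110 had 8 and 0.340% gained, and ARF-112 0 and 0% lost. With at least 15 probes a segment ARF-110 had 6 breakpoints, 0% gained and 5.92% lost. With both sides apart ARF-112 had 13.6% lost and ARF-129 0 breakpoints. With ratios limited to the running median (added after seeing the data) ARF-110 had 0 breakpoints, 0% gained and 0% lost. Taking the segment over each gene, 100% of genes past the stretch were at or above 0.25 in ARF-129, and 8 genes changed sign: AK164627 -0.0450, Bhmt -0.0251, Ccnh -0.0520, E2f3 -0.0676, Esm1 -0.0226, Foxf2 -0.0676, Isl1 -0.0226 and Sirt5 -0.0676. E2f3 was also at -0.15 on shared probes. Leaving out each tumour gave a mean level between -0.10 and -0.02. The causes were not tested.

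The ARF-129 difference past minus before kept its direction under all 8 alternatives run on it, but the gain call did not survive normexp, shared probes or a threshold of 0.35, and the loss of the ARF-112 interval did not survive shared probes, the stretch included, a threshold of 0.35 or 10 log n, and lost probes shrank to 0.137% under normexp. No paired analysis was possible because the tumours form a single group. Tumour purity and ploidy are unknown, ARF-110 cannot show changes finer than its sparser spacing, and gene values on few probes follow single probes. Signal over background was lowest in ARF-128 (4.11) and ARF-110 (5.79).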
